A study of Mus musculus with 13 samples.

Results

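The genes described here are 36 genes of glycolysis and of the cellular response to low oxygen, out of 22656 genes in the table, in mouse melanoma cells taken from lung tumours of mice with one of 2 human apolipoprotein E alleles. They were chosen by symbol. Of them, 19 carry glucose into the cell, convert it to pyruvate and lactate or set the rate of that conversion, and lactate export is counted among them (Slc2a1 to Slc16a3), while the other 17 are the hypoxia factor Hif1a and genes known as targets of hypoxia-inducible factors. All 36 were found, and 35 averaged 10 or more normalised counts across the libraries and were tested. Egln3, with 0 to 25.9 normalised counts, was below that limit. The cells were B16F10-TR-shApoe, a derivative of the B16F10 melanoma line whose name marks a hairpin against Apoe, shared by both groups, and they were injected into the tail vein of knock-in mice. The hosts were APOE2 mice (8 libraries) or APOE3 mice (5 libraries), all taken on day 15 after injection, and the labels used here give no age, sex or strain of the hosts. Living GFP-positive cells without the leukocyte antigen CD45 were sorted from digested lung, and their RNA was read from the 3' end of transcripts with the QuantSeq forward kit. All the tumour cells come from 1 cell line. The libraries differ by host and by the tumours grown in the host, and also in depth and in markers of other lung cells, as given below. Apoe itself, the target of the hairpin, had 1193 to 2369 normalised counts over all libraries, and no library without the hairpin was there to set this against.

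Glycolysis turns glucose into pyruvate through a chain of cytosolic enzymes, and in many tumours the pyruvate is reduced to lactate and exported. When oxygen is short, the HIF-1 alpha protein is no longer hydroxylated by prolyl hydroxylases and degraded through the von Hippel-Lindau ubiquitin ligase. It then pairs with ARNT and binds hypoxia response elements, whose core reads ACGTG or GCGTG, near most glycolytic genes and near genes for angiogenesis, pH control, mitophagy and collagen hydroxylation. HIF-1 alpha is controlled mainly at the protein, so its transcript need not follow the activity of its targets.

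Of the 33 members with an entry in the RefSeq promoter table (GRCm38.p6), 31 held at least 1 copy of ACGTG or GCGTG, on either strand, in the 250 bases before an annotated start. Slc2a3, Bnip3l and Ndrg1 had no entry. Among all 27025 genes with an entry, 11226 did, or 41.5%. This is a property of the letters in those windows and not a measurement of binding, and the palindrome CACGTG, which also belongs to E-box motifs, counts once on each strand. The 5 windows below are shown because these genes carry the results: the hexokinase gene that differed with host genotype, a glucose transporter and 2 hypoxia targets that were low together in 1 library, and Gpi1, which has no copy in its window. They are written 5' to 3' in the direction of transcription, up to the base before the start, and capitals mark the copies of the motif.
Hk2, chr6:82774455-82774704, minus strand: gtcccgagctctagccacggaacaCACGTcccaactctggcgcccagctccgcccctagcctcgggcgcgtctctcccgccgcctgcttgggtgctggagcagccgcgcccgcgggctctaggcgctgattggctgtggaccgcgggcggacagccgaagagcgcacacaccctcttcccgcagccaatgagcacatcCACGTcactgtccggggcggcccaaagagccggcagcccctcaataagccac
Slc2a1, chr4:119108495-119108744, plus strand: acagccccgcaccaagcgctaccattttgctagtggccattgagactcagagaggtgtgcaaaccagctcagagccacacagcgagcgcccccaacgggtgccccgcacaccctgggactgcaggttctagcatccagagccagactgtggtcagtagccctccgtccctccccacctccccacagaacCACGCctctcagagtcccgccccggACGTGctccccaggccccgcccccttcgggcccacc
Car9, chr4:43506776-43507025, plus strand: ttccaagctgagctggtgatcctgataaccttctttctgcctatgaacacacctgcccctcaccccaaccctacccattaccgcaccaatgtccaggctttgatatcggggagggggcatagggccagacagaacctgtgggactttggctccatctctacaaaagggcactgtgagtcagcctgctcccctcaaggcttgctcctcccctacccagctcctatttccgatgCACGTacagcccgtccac
Bnip3, chr7:138909507-138909756, minus strand: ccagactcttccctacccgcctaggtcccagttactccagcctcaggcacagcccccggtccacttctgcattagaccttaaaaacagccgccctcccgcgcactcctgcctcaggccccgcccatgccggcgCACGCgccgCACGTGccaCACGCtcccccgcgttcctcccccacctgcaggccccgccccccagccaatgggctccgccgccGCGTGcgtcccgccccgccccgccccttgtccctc
Gpi1, chr7:34230337-34230586, minus strand: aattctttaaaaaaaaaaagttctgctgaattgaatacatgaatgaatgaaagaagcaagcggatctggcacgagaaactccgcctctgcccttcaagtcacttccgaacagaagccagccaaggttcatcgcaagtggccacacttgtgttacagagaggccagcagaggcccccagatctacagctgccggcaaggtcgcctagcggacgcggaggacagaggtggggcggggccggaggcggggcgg
Hk2 has 2 copies and Slc2a1 has 2, Car9 has 1 that begins 18 bases before the start, and Bnip3 has 5, of which 4 lie between 117 and 99 bases before the start. In Bnip3, 2 of these 5 are the strands of one palindrome.

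Libraries held 7080308 to 13039989 recovered reads. All 10 melanocyte markers were tested, with the lowest mean at 2321 normalised counts, and their sum, in CPM of the normalised counts, ran from 42640 to 57959 (APOE2) and from 34642 to 45325 (APOE3). Ptprc, which encodes CD45, had 1.01 to 38.5 normalised counts. Markers of other lung cells were lower in APOE2. The 15 lung-epithelium markers summed to 95.7 to 497 CPM in APOE2 and 438 to 2595 in APOE3, with 6 of 12 tested called lower, beside 0.379% of all genes. The 14 endothelial markers summed to 89.3 to 139 and 135 to 286, with 2 of 14 called lower, and the 13 fibroblast and smooth muscle markers to 48.7 to 128 and 71.6 to 357, with 2 of 9 tested called lower. Leukocyte markers, 20 of 21 in the table, summed to 59.5 to 306 and 265 to 1531, with 2 of 9 tested called lower. Erythroid markers summed to 4.80 to 22.04 and 2.84 to 26.8, with 0 of 3 tested called in limma. No marker in the table was at 0 in every library. In such bulk RNA, fewer cells of a type and less RNA per cell cannot be told apart.

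Tumour cells from APOE2 hosts were set against those from APOE3 hosts. One member passed the test: Hk2, encoding hexokinase 2, the inducible enzyme that traps glucose as glucose 6-phosphate, rose in APOE2 hosts. By limma with Benjamini-Hochberg adjustment over 12403 genes, 1 of the 35 members was called higher and 0 were called lower, where 0.411% of all genes tested were called higher and 0.379% lower (0.79% in either direction). edgeR and DESeq2 on recovered reads gave the same member counts, but called more of all genes tested, 1.11% in edgeR and 2.51% in DESeq2 in either direction. At an unadjusted limma p under 0.05, 3 members were higher (7.51% of all genes) and 5 were lower (6.71%). Among the 19 glycolysis members 6 were higher and 13 lower, with a median log2 fold change of -0.21, and among the 16 other hypoxia members tested 6 were higher and 10 lower, with a median of -0.11. Over all genes tested the median was 0.00037, with 49.9% lower and 50.1% higher. Without APOE2 replicate 1 the median was -0.15 for glycolysis and 0.026 for the other hypoxia members. With all libraries the second was also near 0 in edgeR (-0.0050) and DESeq2 (-0.012), so its direction is not settled. For 0 of the 35 members were the groups fully apart, against 0.984% of all genes.

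**Figure D1:**
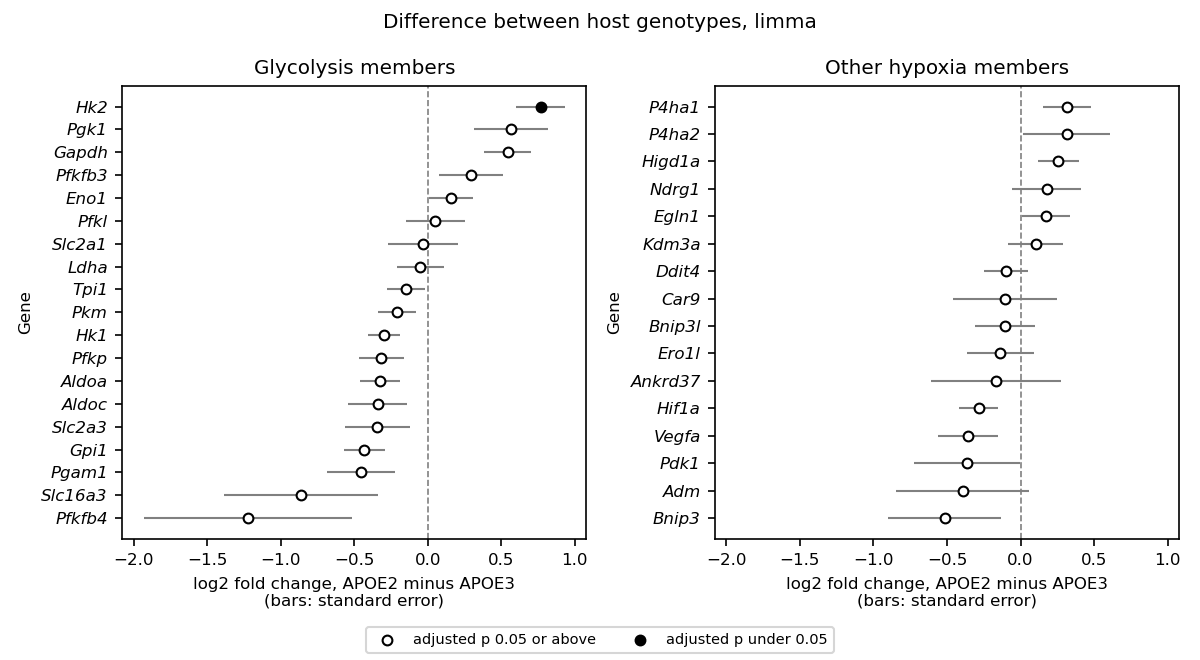
Log2 fold change (APOE2 minus APOE3, x axis) of each tested gene, on the log2(normalised count + 1) scale, for 19 glycolysis members (left) and 16 other hypoxia members (right); bars are standard errors from limma with 8 and 5 libraries. The filled point is Hk2 at 0.77; open points did not pass an adjusted p of 0.05, and Slc16a3 and Pfkfb4 have the widest bars among glycolysis members.

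The first step of glycolysis gave the difference between genotypes. Hk2 (ENSMUSG00000000628, chr6:82725025-82774454, minus strand, GRCm38) had 3984 normalised counts in the lowest APOE2 library, a median of 5612 and 7996 in the highest. In the 5 APOE3 libraries it had 4077, 4352, 3673, 2865 and 2620.5. All 8 APOE2 libraries lay above the APOE3 mean of log2 values, and the overlap came from APOE2 replicate 1, the lowest of its group, which stood below APOE3 replicates 1 and 2. The mean was 6072 ± 1658.5 (SD, n = 8) against 3517 ± 752 (SD, n = 5), a log2 fold change of 0.77 ± 0.17 (SE; limma adjusted p = 0.0301). The adjusted p was 0.0239 in edgeR and 0.00103 in DESeq2. With 1 library left out in turn the log2 fold change stayed between 0.67 and 0.85, while the limma adjusted p ran from 0.0176 to 0.0876 and was under 0.05 in 7 of 13 fits. It failed without APOE2 replicate 2, 5 or 7 and without APOE3 replicate 3, 4 or 5 (adjusted p from 0.0525 to 0.0876). The call was also lost with no filter on low values (adjusted p = 0.116) and without the variance trend in limma (adjusted p = 0.186), and with replicates 1 to 5 of each genotype alone, both with the replicate number as a block (adjusted p = 0.0565) and without it (adjusted p = 0.0764). The lower marker sums of other lung cells in APOE2 moved with this difference in the opposite direction, and their part in it was not tested.

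Hk1, the constitutive hexokinase, had values on the other side. It had 1704, 1886 and 2200.5 normalised counts as the lowest, median and highest APOE2 value, and 2284, 2960.3, 2039, 2371 and 2217 in APOE3. In 8 of 8 APOE2 libraries the log2 value was under the APOE3 mean, but the groups overlapped and the log2 fold change of -0.30 ± 0.11 (SE) did not pass (limma adjusted p = 0.210). The ratio of Hk2 to Hk1 counts within a library, which does not depend on the scaling between libraries, was looked at after these values were seen and is given as a description. It was 2.24 to 4.46 in APOE2 (mean 3.16 ± 0.82, SD, n = 8) and 1.18 to 1.80 in APOE3 (1.49 ± 0.30, SD, n = 5). Every APOE2 library was above every APOE3 library. As a ratio between genes it also depends on how well each 3' end is captured, so only its order across libraries can be read. Exons of Hk1 overlap the opposite-strand transcript Hk1os, and no other annotated exon overlaps Hk2.

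**Figure D2:**
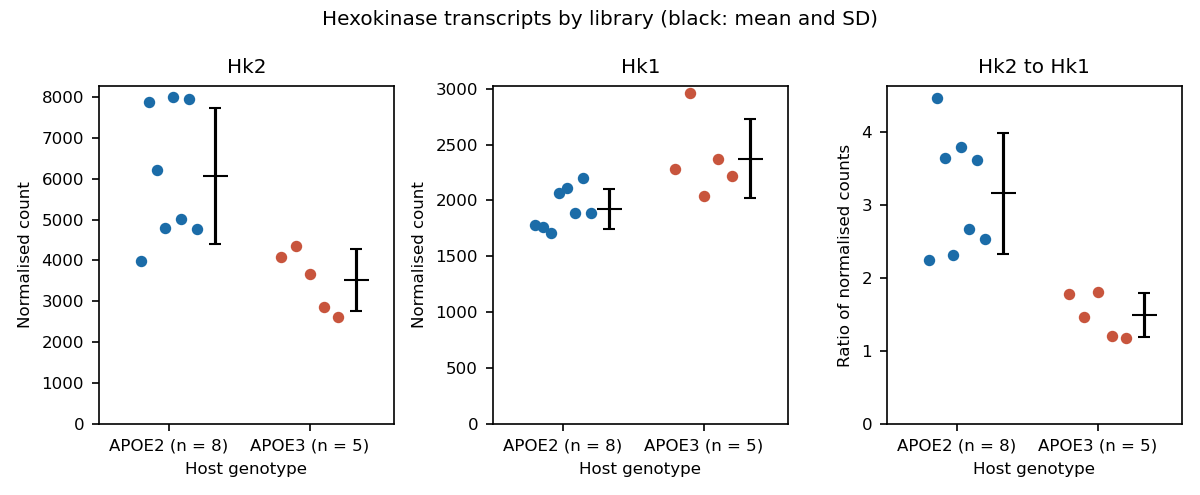
Normalised counts of Hk2 (left) and Hk1 (middle) and their ratio (right) for each library, by host genotype; points are libraries, black marks are the mean and SD (n = 8 and n = 5), and all y axes start at 0. Hk2 values overlap between 3984 and 4352, and the ratios do not overlap, with 2.24 as the lowest in APOE2 and 1.80 as the highest in APOE3.

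Glucose enters through the transporters Slc2a1 (GLUT1) and Slc2a3 (GLUT3). Slc2a1 had 120, 334 and 450 normalised counts as the lowest, median and highest APOE2 value and 283, 275, 406, 314 and 259 in APOE3. APOE2 spanned the whole APOE3 range, with a log2 fold change of -0.032 ± 0.24 (SE; limma adjusted p = 0.970). Slc2a3 ranged from 72.5 to 142 in APOE2 and from 117 to 187 in APOE3, with a log2 fold change of -0.34 (adjusted p = 0.50).

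Of the 7 members that act, or set the rate, between hexokinase and the triose phosphates, 5 had negative and 2 had positive log2 fold changes, and none passed the test. Gpi1, which turns glucose 6-phosphate into fructose 6-phosphate, had 1558, 2543 and 3267 normalised counts as the lowest, median and highest in APOE2 and 2909.5, 4089, 3214, 3370 and 3379 in APOE3. Only 2 APOE2 libraries exceeded the lowest APOE3 value, and all 8 lay under the APOE3 mean of log2 values. The log2 fold change was -0.43 ± 0.14 (SE; limma adjusted p = 0.147). Aldoa, the aldolase that splits fructose 1,6-bisphosphate, had 3129, 5408.5 and 6415 in APOE2 and 5767, 7049, 6690.5, 6003 and 6300 in APOE3, with 7 of 8 APOE2 libraries below the APOE3 mean of log2 values. Its log2 fold change was -0.32 ± 0.14 (SE; adjusted p = 0.277). The phosphofructokinases, which commit the sugar to glycolysis, had -0.31 for Pfkp (adjusted p = 0.350; -0.18 without APOE3 replicate 2) and 0.051 for Pfkl (adjusted p = 0.938). The sign of the Pfkl value changed with the library left out, from -0.054 without APOE3 replicate 5 to 0.21 without APOE2 replicate 1. For the second aldolase, Aldoc, the log2 fold change was -0.34 (adjusted p = 0.458), and it was -0.20 without APOE3 replicate 2 and -0.22 without APOE3 replicate 4. The regulatory enzymes that set fructose 2,6-bisphosphate had 0.29 for Pfkfb3 (adjusted p = 0.572) and -1.22 for Pfkfb4 (adjusted p = 0.443). The Pfkfb3 value was 0.093 without APOE3 replicate 4 and 0.48 without APOE3 replicate 2. The Pfkfb4 value rests on APOE2 replicate 3, which had 0 reads, and is -0.52 without that library and -0.72 in edgeR.

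In the later steps of the pathway the members went both ways. Gapdh, the glyceraldehyde 3-phosphate dehydrogenase, had 4346, 5338 and 6419 normalised counts as the lowest, median and highest in APOE2 and 4611, 2010, 3182, 4235 and 4544 in APOE3. All 8 APOE2 libraries were above the APOE3 mean of log2 values, and the group ranges overlapped between 4346 and 4611. The log2 fold change was 0.54 ± 0.16 (SE; limma adjusted p = 0.110). Without APOE3 replicate 2, the lowest library, it was 0.34 (adjusted p = 0.206), and without APOE3 replicate 1 it was 0.64 and passed (adjusted p = 0.0454). Pgk1, the phosphoglycerate kinase, showed the same library: it had 423, 644 and 892 in APOE2 and 587, 155, 489, 456 and 658 in APOE3. Its log2 fold change of 0.57 ± 0.25 (SE; adjusted p = 0.309) became 0.21 without APOE3 replicate 2.

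Ldha, which reduces pyruvate to lactate, had 2896, 5850 and 6495 normalised counts as the lowest, median and highest in APOE2 and 6593, 5338, 6797, 5700 and 4024 in APOE3. The groups overlapped, with a log2 fold change of -0.052 ± 0.16 (SE; limma adjusted p = 0.923). For the remaining enzymes the log2 fold change was -0.15 for Tpi1, -0.45 for Pgam1, 0.16 for Eno1 and -0.21 for Pkm, with adjusted p-values from 0.377 to 0.677. Without APOE3 replicate 2 these were -0.24 for Tpi1, -0.27 for Pgam1, 0.053 for Eno1 and -0.095 for Pkm. Tpi1 was also -0.079 without APOE2 replicate 1 and -0.092 without APOE3 replicate 3, and Eno1 0.092 without APOE2 replicate 3 and 0.28 without APOE3 replicate 1. The lactate exporter Slc16a3 (MCT4) had -0.86 ± 0.52 (SE; adjusted p = 0.471), which was -0.30 without APOE2 replicate 1 and -0.51 in edgeR. Several of these enzymes have processed pseudogenes, and how reads shared with them were counted is not stated, so single values are uncertain to that extent. Exons of 13 members overlap a gene on the opposite strand, among them Gapdh (Iffo1), Aldoa (Fam57b), Tpi1 (Spsb2), Pfkp (Pitrm1), Gpi1 (Gm26762) and Slc2a1 (Gm12868), and strand use in counting is not stated. Exons of Pkm (Gm49759) and Hif1a (Gm49321) overlap a gene on the same strand.

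APOE3 replicate 2 was often at the high or low end of its group. It had the highest APOE3 value of 10 of the 19 glycolysis members (Hk1, Hk2, Gpi1, Pfkl, Pfkp, Pfkfb3, Aldoa, Aldoc, Pgam1 and Pkm) and the lowest of 5 (Pfkfb4, Tpi1, Gapdh, Pgk1 and Eno1). Over all genes tested it was the highest APOE3 library for 27.0% and the lowest for 26.0%, more often at either end than any of the other 4. For the glycolysis members these shares were 52.6% and 26.3%, so only the share at the high end was above that of all genes. Among 32 further genes of glucose metabolism, outside the member list, they were 34.4% and 37.5%. The nuclear noncoding gene Gm42418 took 3.74% of the counts of APOE3 replicate 2, against 1.11% to 3.03% in the other APOE3 libraries. Whether these values are linked was not tested.

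Among the regulators of the hypoxia response, Hif1a had 1012, 1306 and 1551 normalised counts as the lowest, median and highest in APOE2 and 1836, 1465.5, 1767, 1726.5 and 1159 in APOE3. Every APOE2 library was under the APOE3 mean of log2 values, although APOE3 replicates 2 and 5 lay within the APOE2 range. The log2 fold change was -0.28 ± 0.13 (SE; limma adjusted p = 0.335). The prolyl hydroxylase gene Egln1 had 0.17 (adjusted p = 0.679), which was 0.28 without APOE2 replicate 1 and 0.098 without APOE3 replicate 2.

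Targets outside glycolysis gave values on both sides, with adjusted p-values of 0.389 or more. Vegfa, the angiogenic growth factor, had 176, 270.1 and 417 normalised counts as the lowest, median and highest in APOE2 and 278, 270.0, 490.2, 334 and 338 in APOE3. The log2 fold change was -0.36 ± 0.20 (SE; limma adjusted p = 0.434), and -0.22 without APOE3 replicate 3, the highest library. Car9, the surface carbonic anhydrase of hypoxic cells, had 78.4, 443 and 815 against 403, 259.9, 517.2, 516.8 and 532. Its APOE2 range enclosed all APOE3 values, with a log2 fold change of -0.11 ± 0.35 (SE; adjusted p = 0.927). It was 0.23 without APOE2 replicate 1 and 0.083 in edgeR. The mitophagy receptor Bnip3 had 64.1, 574 and 792 in APOE2 and 732, 730, 725, 758 and 401 in APOE3. Its log2 fold change of -0.52 ± 0.38 (SE; adjusted p = 0.571) became -0.11 without APOE2 replicate 1 and was -0.31 in edgeR. Its relative Bnip3l had -0.11 (adjusted p = 0.858), within a range from -0.30 to 0.0095 when 1 library was left out.

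The collagen prolyl hydroxylases had positive values. P4ha1 had 404, 637 and 890 normalised counts as the lowest, median and highest in APOE2 and 518, 365, 463, 657 and 543 in APOE3, with a log2 fold change of 0.32 ± 0.16 (SE; limma adjusted p = 0.389) that was 0.20 without APOE3 replicate 2. P4ha2 had 236, 635 and 866 against 191, 364, 557, 694 and 533, with 0.31 ± 0.29 (SE; adjusted p = 0.673). Without APOE3 replicate 1, its lowest library, P4ha2 had 0.022, and without APOE2 replicate 3 or APOE3 replicate 4 it had 0.48 or 0.49. Higd1a, a mitochondrial inner-membrane protein, had 1647, 2569.6 and 3322 in APOE2 and 2590.3, 2011, 1862, 1918 and 2011 in APOE3, with 0.26 ± 0.14 (SE; adjusted p = 0.410). The remaining log2 fold changes ran from -0.39 for the vasodilator peptide gene Adm and -0.36 for Pdk1, the kinase that inhibits pyruvate dehydrogenase, through -0.17 for Ankrd37, -0.14 for the oxidase gene Ero1l and -0.098 for the mTORC1 inhibitor Ddit4, to 0.10 for the histone demethylase gene Kdm3a and 0.18 for Ndrg1. Their adjusted p-values were 0.689 to 0.906. Single libraries moved these values by large factors: Pdk1 was -0.10 without APOE2 replicate 1, -0.21 without APOE2 replicate 6 and -0.24 without APOE3 replicate 1, and Ndrg1 was 0.0099 without APOE3 replicate 1 and 0.33 without APOE3 replicate 5. Ddit4 was -0.0016 without APOE3 replicate 5 and -0.21 without APOE3 replicate 3. Ero1l, Ankrd37 and Kdm3a changed sign without APOE2 replicate 1 (0.067), APOE2 replicate 3 (0.12) and APOE3 replicate 2 (-0.12). Adm was the most scattered of these between APOE3 libraries, at 569, 355, 171, 762 and 48.6, and its log2 fold change was -1.0 without APOE3 replicate 5, -0.12 without APOE3 replicate 1 and -0.014 without APOE3 replicate 4.

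**Figure D3:**
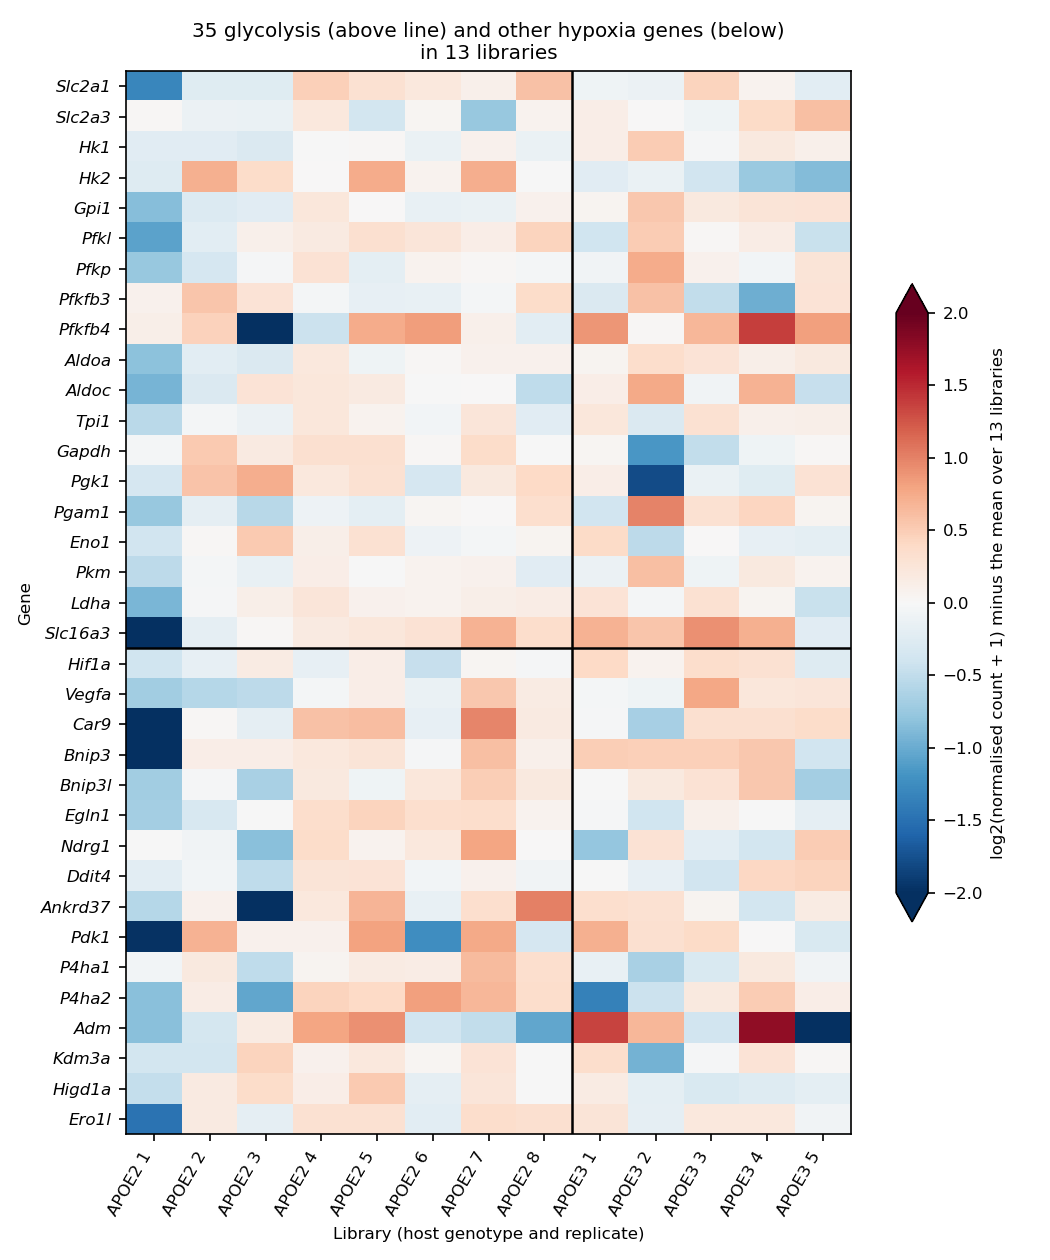
Heat map of the 35 tested genes (y axis, glycolysis above the horizontal line) in 13 libraries (x axis, APOE2 left of the vertical line); colour is log2(normalised count + 1) minus that gene's mean over the 13 libraries, and values beyond 2 in either direction have the end colour. APOE2 replicate 1 is blue for most genes, and Gapdh and Pgk1 are lowest in APOE3 replicate 2. Hk2 is higher on average in APOE2, where its lowest library, APOE2 replicate 1, is below APOE3 replicates 1 and 2.

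The members also varied between libraries of one genotype. The median within-group SD of log2 values was 0.35 for the glycolysis members and 0.46 for the other hypoxia members, beside 0.38 for all genes tested and 0.30 for those that averaged 100 or more normalised counts. One library, APOE2 replicate 1, had low values across both classes. It was the lowest of the 8 APOE2 libraries for 15 of the 19 glycolysis members and for 8 of the 16 other hypoxia members tested, and for 10.3% of all genes tested. Its median log2 ratio to the median of the other 7 APOE2 libraries was -0.65 for glycolysis, -0.72 for the other hypoxia members and 0.0011 for all genes. These shares were computed after the values were seen and carry no test.

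How low the values of that library were differed by gene. Slc16a3 had 10.9 normalised counts (16 reads) there, against 196 to 361 in the other 7 APOE2 libraries, which is 4.16% of their median. Bnip3 had 64.1 against 513 to 792 (11.1% of the median), Car9 78.4 against 365 to 815 (16.8%), Pdk1 49.1 against 82.4 to 343 (23.5%) and Ero1l 184 against 444 to 657 (28.8%). These 5 genes export lactate, start mitophagy, buffer pH, restrain pyruvate oxidation and help form disulphide bonds in the endoplasmic reticulum. Slc2a1 had 34.7% of the median, Pfkl 41.8% and Ldha 48.9%. In all, 4 glycolysis members and 6 other hypoxia members were under 50% of the median, and 4.02% of all genes tested were.

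Other members in that library were near their group. Slc2a3 had 110% of the median of the other 7, Pfkfb3 109%, Pfkfb4 101%, Hk1 94.2%, Ndrg1 94.1%, Ddit4 89.5% and P4ha1 86.1%. Hif1a itself had 77.1%, with 1058 normalised counts against 1012 in the lowest of the other 7. Hk2 had 64.2%, below the other 7. Among hypoxia targets outside the 36, Ak4 had 20.1%, Fam162a 52.5% and Plod2 52.9%, while Hilpda had 94.7% and Mif 76.4%. Over all such targets tested, values ran from 0% for Stc1 to 160% for S100a4. Their median log2 ratio to the median of the other 7 was -0.36. Of 39 such targets tested, 13 were lowest in that library (33.3%), and 13 were lowest in APOE2 replicate 3, which was the lowest APOE2 library for 20.4% of all genes. Of 32 further genes of glucose metabolism, 5 were lowest in APOE2 replicate 1 (15.6%), 5 in replicate 3 and 8 in replicate 6, so these further genes did not set replicate 1 apart in that count.

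APOE2 replicate 1 was the deepest library, with 13039989 reads. Its lung-epithelium, fibroblast and leukocyte marker sums (455, 75.4 and 275 CPM) were within the range of the other APOE2 libraries, its endothelial sum of 89.3 was the lowest of all 13, and its melanocyte sum of 57959 was the highest. The part of these in the low values was not tested.

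**Figure D4:**
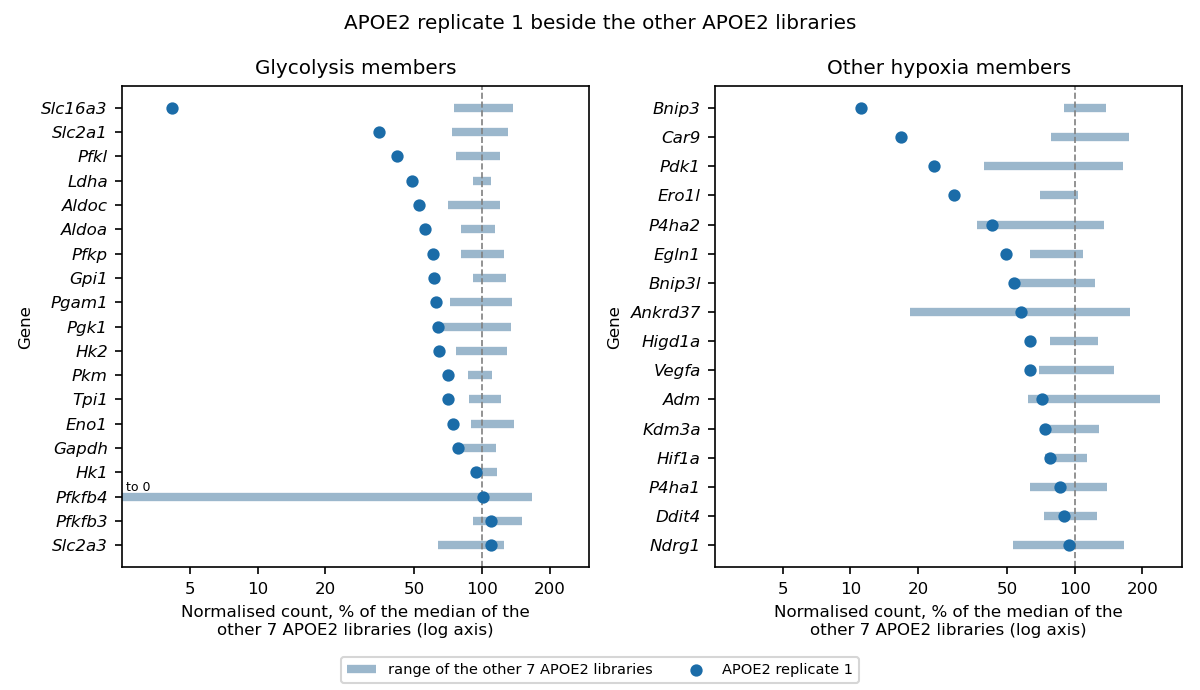
Normalised count of each gene in APOE2 replicate 1 (points) as a percentage of the median of the other 7 APOE2 libraries (log x axis), with the range of those 7 as bars, for glycolysis members (left) and other hypoxia members (right). Slc16a3 is at 4.16%, Bnip3 at 11.1% and Car9 at 16.8%, while Ndrg1 and Slc2a3 lie near 100%; the Pfkfb4 bar runs to 0.

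The values of the other 7 APOE2 libraries were compared across members by Pearson's r with Bnip3 (log2 values, n = 7 without APOE2 replicate 1). The genes were chosen after their values were seen, partly because they were low with Bnip3 in the library left out, so r is a description and carries no test. It was 0.89 for Car9, 0.71 for Pdk1, 0.63 for Ero1l, 0.62 for Slc16a3, 0.58 for Hk2 and 0.51 for Hif1a. For Ldha it was 0.19 and for Slc2a1 -0.012. With APOE2 replicate 1 included (n = 8) r was 0.97 for Ldha and 0.86 for Slc2a1, so for these 2 genes the relation rests on that library. For Slc16a3 r was -0.15 when APOE2 replicate 7, the highest Bnip3 library, was left out as well (n = 6), while for Car9 it was 0.83 and for Pdk1 0.86. The libraries share their genotype and scaling, and 7 values set r only loosely.

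Genes of the same pathways outside the 36 were read from 3 further lists, and in limma 0 of them passed the adjusted threshold. Of 40 further genes of glucose metabolism 32 were tested, 10 higher and 22 lower in APOE2 (median log2 fold change -0.16), and at an unadjusted p under 0.05 there were 1 higher (7.51% of all genes) and 6 lower (6.71%). The smallest p-values were those of Bsg (-0.34, limma adjusted p = 0.196), which encodes basigin, the chaperone of lactate transporters, of Mpc2 (0.39, adjusted p = 0.223), a subunit of the mitochondrial pyruvate carrier, and of G6pdx (-0.47, adjusted p = 0.254), which opens the pentose phosphate pathway. Of 48 further hypoxia targets 39 were tested, 13 higher and 26 lower, with a median of -0.21, and 1 higher and 3 lower at an unadjusted p under 0.05. Insig2 (0.36), Cdkn1a (-0.47, and -0.28 without APOE3 replicate 4) and Edn1 (-1.99) had the smallest p-values, with adjusted p from 0.161 to 0.285.

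Of 18 regulators of the hypoxia factors 16 were tested, 9 higher and 7 lower, with a median of 0.085. At an unadjusted p under 0.05 there were 3 higher (7.51% of all genes) and 1 lower (6.71%). Those with the smallest p-values were both elongin partners of the von Hippel-Lindau protein and the HIF-2 alpha gene. On the same list, the log2 fold change was -0.081 for Vhl, 0.15 for Cul2 and 0.16 for Rbx1 (limma adjusted p from 0.485 to 0.862). Elob (listed by its older symbol Tceb2) averaged 3824 ± 456 normalised counts (SD, n = 8) against 2912 ± 257 (SD, n = 5). Every APOE2 library, from 3177 upward, was narrowly above every APOE3 library, up to 3153. The groups were fully apart for 1 of the 16 regulators tested and for 0.984% of all genes. The log2 fold change of Elob was 0.39 ± 0.11 (SE; limma adjusted p = 0.0844, 0.0122 in DESeq2). Eloc (Tceb1) had 0.57 ± 0.19 (SE; adjusted p = 0.163), which was 0.33 without APOE3 replicate 2 and passed without APOE3 replicate 1 (0.72, adjusted p = 0.0412). Epas1, which encodes HIF-2 alpha and is abundant in lung endothelium, had 192 ± 51.6 against 385 ± 223, a log2 fold change of -0.82 ± 0.29 (SE; limma adjusted p = 0.193). It passed in DESeq2 (adjusted p = 0.0288), 1 of 12 other settings. With 1 library left out it passed in 1 of 13 limma fits, without APOE3 replicate 1 (adjusted p = 0.0282). In those 13 fits the adjusted p reached 0.395, and the log2 fold change was -0.56 without APOE3 replicate 4. Epas1 ranged from 129 to 279 in APOE2 and from 145 to 682 in APOE3. The endothelial marker sum was lower in APOE2 as given above, and its part in the Epas1 and Edn1 values was not tested.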

How the data were processed

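Normalised counts, a signal in which reads are scaled by a factor for each library, were deposited by the authors for 22656 genes and 13 libraries. The submitters' processing notes name STAR 2.6.0, featureCounts, DESeq2 1.28.1 and mm10; annotation and strand setting are not given in the sources used here. In each column 100% of the nonzero values were whole multiples (within 0.001) of that library's step, so reads were recovered by division. Symbols and positions came from GENCODE M21 (GRCm38), which held 22649 of the identifiers, and promoter windows from RefSeq. Groups came from the sample titles.

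Log2(value + 1) of the 12403 genes with a mean of at least 10 was compared with limma 3.58.1 (R 4.3.3, intensity trend, two-sided), Benjamini-Hochberg adjusted over all of them, threshold 0.05. Adding 1 pulls fold changes of low genes toward 0, and 1 library near 0 can enlarge them. Alternatives used recovered reads in DESeq2 1.42.0 and in the quasi-likelihood test of edgeR 4.0.16, other pseudocounts, filters and scalings, a replicate block and each library left out. On data simulated for this comparison (12223 genes) limma recovered 49% of genes changed by 0.75 and 97% by 1.5 (log2). The changed genes were drawn from those with a mean of at least 50. Of the calls there, 5.81% were false in limma, 6.25% in edgeR and 13.8% in DESeq2, so DESeq2 calls are the least strict. The members and lists were chosen with earlier results of these data known. The lowest, median and highest APOE2 value and each APOE3 value are given for members past the threshold, the 6 of each class with the smallest p, and Hif1a, Slc2a1, Ldha, Vegfa and Car9; from each further list the 3 genes with the smallest p are named. The series text counts mice in each group, so libraries are read as separate hosts. The p-values set the difference between genotypes against the variation between libraries, which also differ in depth and in markers of other lung cells.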

Additional observations from a re-analysis of the deposited data

Results flagged for a closer look

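Each member was screened in each genotype with Dixon's criterion, which divides the distance from the highest or lowest log2 value to the next one by the full range and picks about 1 in 20 groups by chance. In 72 screens 12 values stood apart, where chance gives about 3.6, and members that vary together are not separate evidence. Of the 12, 8 were the lowest APOE2 value and fell in APOE2 replicate 1: Slc2a1 (120 normalised counts), Gpi1 (1558), Pfkl (517), Ldha (2896), Slc16a3 (10.9), Car9 (78.4), Bnip3 (64.1) and Ero1l (184). Pfkfb4 was at 0 in APOE2 replicate 3. In APOE3 hosts Pgk1 was lowest in replicate 2 (155), Bnip3 was lowest in replicate 5 (401) and Higd1a was highest in replicate 1 (2590.3).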

How the results depend on the processing

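The count of 1 member called higher (Hk2) held with both other pseudocounts, a minimum mean of 50, equal totals, TMM scaling, array weights, edgeR and DESeq2. It was 0 with no filter on low values, without the trend, with the replicate block (replicates 1 to 5) and with replicates 1 to 5 and no block, the last chosen after seeing the data; it ran from 0 to 2 when 1 library was left out. The count called lower was 0 in all settings. Over all genes, 51 called higher became 5 with no filter, 0 without the trend, 153 in DESeq2, 29 with the block and 19 without it on the same replicates, and 5 to 131 with 1 library left out. The 47 called lower became 73 with a pseudocount of 5, 4 with no filter, 0 without the trend (1599 genes had an unadjusted p under 0.05), 77 in edgeR, 158 in DESeq2 and 21 with replicates 1 to 5 and no block, and 4 to 97 with 1 library left out. The causes were not tested. Members that changed sign had small values: Slc2a1 was 0.048 in edgeR and 0.042 in DESeq2, Car9 0.083 and 0.077, Ankrd37 0.039 and 0.031, and 0.021 with array weights, where Ddit4 was 0.017 and Kdm3a -0.035. Pfkl was -0.10 with replicates 1 to 5, with or without the block. With 1 library left out, ranges that crossed 0 were -0.12 to 0.15 (Slc2a1), -0.054 to 0.21 (Pfkl), -0.17 to 0.077 (Ldha), -0.29 to 0.23 (Car9), -0.30 to 0.0095 (Bnip3l), -0.32 to 0.12 (Ankrd37), -0.12 to 0.21 (Kdm3a) and -0.20 to 0.067 (Ero1l). Over all genes tested, deviations of same-numbered libraries of the groups had correlations from -0.063 to 0.014. These gave no sign of pairing by replicate number, and a batch shared by same-numbered libraries was not tested. With the block, Hk2 had 0.79 (limma adjusted p = 0.0565). Depth limits Egln3, Ankrd37 and Pfkfb4 most.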
